A study of Homo sapiens with 6 samples.

Results

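The comparison described here is a single pair of untreated HCC95 cultures, 1 carrying an LZTFL1 vector and 1 carrying a GFP control vector. HCC95 is an established human squamous cell line from lung cancer. The vector of the first culture was pSIn-E2F-LZTFL1-ires-GFP-puro and that of the second was pSin-E2F-GFP-puro, per the labels, so both cultures carried GFP and a puromycin resistance gene, and neither received a treatment. The labels give DMEM with Glutamax, serum and antibiotics as the medium for both. They say neither whether the cells were a clone or a pool, nor whether cultures were replicated. The wider series had 6 groups of 1 array each on the Illumina HumanHT-12 v4 beadchip, adding the same vectors in TGFβ-labelled HCC95 and in H460, another lung cancer line. Probes with a detection p below 0.01 on either array of the pair made up the comparison. This kept 17623 of 47323 probes, of which 14867 were detected on both arrays, 1556 only on the array labelled LZTFL1 and 1200 only on the GFP array.

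LZTFL1 is a leucine zipper protein that binds the BBSome, a coat complex that carries membrane proteins in and out of the primary cilium, and it restrains the entry of that complex and of the Hedgehog transducer Smoothened into the cilium. In the airway it is abundant in ciliated epithelium, and it has been studied as a candidate tumour suppressor in lung cancer. Squamous lung cancers keep much of the basal epithelial programme, with basal keratins, desmosomes and hemidesmosomes, and many of them secrete matrix proteases and interleukin-1 family cytokines.

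With 1 array a side there was no replicate, no test and no p-value. Differences are given on the log2 scale as the array labelled LZTFL1 minus the GFP array, after background correction and quantile normalization. The probes that entered covered 10443 of the 20046 named genes on the beadchip, each represented by its brightest probe. A gene detected on 1 array only has a bound, written as "at least", because its other value was raised to the lowest detected value of that array (5.33 on the array labelled LZTFL1 and 5.38 on the GFP array). Where a gene had more than 1 probe detected on both arrays, those probes scattered around their mean with an SD of 0.263 (4909 probes of 2224 genes), and this technical scatter is the only error the pair gives. The number of arrays limits the precision.

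The 2 arrays were alike in signal. The median raw signal was 125 on both arrays, with 16423 probes detected on the array labelled LZTFL1 and 16067 on the GFP array. Normalized values of the 2 arrays correlated across all probes with r = 0.987, which describes probes that share their 2 arrays. Probes at the edge of the detection rule lay close to background: the 135 probes whose smaller detection p was 0.0091, the last step inside, had medians of 5.34 on the array labelled LZTFL1 and 5.14 on the GFP array, and the 294 probes at 0.0104, the first step outside, had medians of 5.02 and 5.35 in the same order of arrays.

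The probe for LZTFL1 itself went against the label. It read 5.07 on the array labelled LZTFL1, where it was not detected (raw signal 132), against 5.75 on the GFP array, where it was (raw signal 161). In the TGFβ-labelled pair the probe was undetected on both arrays (5.07 with LZTFL1 and 5.40 with GFP), so no direction is read there. In H460 the values were 6.39 with LZTFL1 and 6.36 with GFP. Where on the transcript this probe lies was not analysed here, so it cannot be said whether it reads an LZTFL1 coding insert, and the arrays are named by their labels throughout. Such a probe cannot be told apart, with these values, from labels exchanged within the pair, which would turn the sign of every difference given here.

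The cell identity held on both arrays. The 6 squamous markers analysed (SOX2, KRT5, KRT14, DSG3, DSC3 and PKP1) and the 7 epithelial markers (EPCAM, CDH1, KRT8, KRT18, KRT19, CLDN7 and RAB25) were detected on both. The mean squamous marker level was 10.47 on the array labelled LZTFL1 and 11.10 on the GFP array, and the mean epithelial marker level was 10.24 on the array labelled LZTFL1 and 9.97 on the GFP array. Of 8 endothelial markers only VWF was detected, and of 12 white blood cell markers only CD68, both on each array. Of 10 stromal markers COL1A1, COL1A2 and THY1 were detected on both arrays, with COL3A1, DCN, PDGFRA, PDGFRB and FAP undetected on both. These lists do not tell fewer cells of a type from less RNA per cell.

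Sequences are shown for the genes at the low end of the comparison, because the letters of their promoters are compared with those of other genes further on. MMP10 and IL1A had the lowest differences of all genes. Their 250 bases before the transcription start are given from RefSeq (GRCh38.p14), 5′ to 3′ on the gene's strand, with the AP-1 letters TGANTCA in capitals. The MMP10 stretch lies at chr11:102780629-102780878 on the minus strand, with the match beginning 67 bases before the start. The IL1A stretch lies at chr2:112784494-112784743 on the minus strand, with the match beginning 12 bases before the start.
MMP10: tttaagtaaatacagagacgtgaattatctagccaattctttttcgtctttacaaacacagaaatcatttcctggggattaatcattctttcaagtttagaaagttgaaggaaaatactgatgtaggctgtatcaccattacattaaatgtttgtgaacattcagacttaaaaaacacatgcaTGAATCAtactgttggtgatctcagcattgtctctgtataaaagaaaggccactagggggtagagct
IL1A: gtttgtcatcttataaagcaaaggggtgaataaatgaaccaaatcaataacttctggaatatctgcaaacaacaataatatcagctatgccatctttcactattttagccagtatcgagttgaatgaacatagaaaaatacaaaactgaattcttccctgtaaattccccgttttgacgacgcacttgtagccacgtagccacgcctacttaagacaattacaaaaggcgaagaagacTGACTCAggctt

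Genes for 2 microRNAs were also among those at least 2-fold lower, so their mature sequences are shown with the seed (bases 2 to 8) in capitals. The 2 were among 27 measured microRNA genes (7.41%, against 0.661% of all genes). Another 1 of the 27 was at least 2-fold higher (3.70%, against 0.488%). At least 1.5-fold, 4 were higher and 4 lower, and the median was 0.03. hsa-miR-21-5p is encoded at chr17:59841273-59841294 and hsa-miR-205-5p at chr1:209432166-209432187, both on the plus strand. The seeds of the 2 microRNAs differ.
hsa-miR-21-5p: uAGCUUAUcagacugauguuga
hsa-miR-205-5p: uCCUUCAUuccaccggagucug
Which transcripts the probes annotated to these genes read was not analysed, and mature microRNA was not measured. The MIR21 probe read 5.51 on the array labelled LZTFL1 and 7.51 on the GFP array. The MIR205 probe, whose microRNA is abundant in basal epithelium, read 9.01 on the array labelled LZTFL1 and 10.27 on the GFP array, a difference of -1.26.

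Across the 10443 genes the differences were centred on a median of 0.00, with an SD of 0.362. At least 2-fold, 51 genes were higher on the array labelled LZTFL1 (0.488% of genes) and 69 were lower (0.661%). At least 1.5-fold, 450 genes were higher (4.31%) and 495 were lower (4.74%), 9.05% of genes in all. These shares are the background against which every gene list below is set. The split between higher and lower rests on quantile normalization. With each array scaled by its median instead, the median of all genes moved to -0.17, and 26 genes were at least 2-fold higher and 168 lower. That is 13.4% higher among the genes past 2-fold, against 42.5% with quantile normalization. Counted from the shifted median, median scaling gave 59 genes higher and 77 lower.

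The lower end ran farther from the centre than the higher end. The lowest difference was -4.30 (MMP10) and the highest was 1.86 (SCNN1A). Genes were split by brightness into 3 parts of 3481. Among the brightest, 4 were at least 2-fold higher and 21 lower, while the middle part held 26 higher and 25 lower and the dimmest 21 higher and 23 lower.

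**Figure D1:**
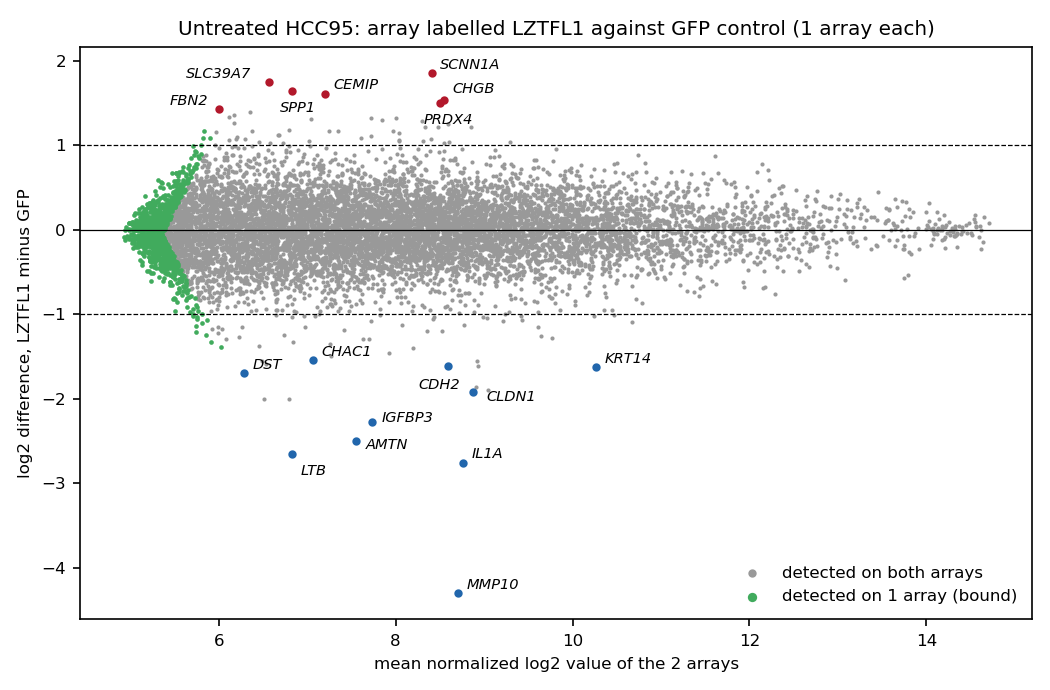
Difference between the 2 untreated HCC95 arrays (LZTFL1 minus GFP, log2, y axis) against the mean normalized log2 value of both (x axis) for 10443 genes, with 1 point per gene. Grey points were detected on both arrays and green points on 1 array, labelled genes are red where higher and blue where lower (FBN2 is a bound), dashed lines mark 2-fold, and MMP10 stands lowest at -4.30 while SCNN1A stands highest at 1.86.

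The 15 genes with the lowest differences included secreted proteins, adhesion proteins and transcriptional regulators. Stromelysin-2, the protease encoded by MMP10, read 6.56 on the array labelled LZTFL1 and 10.86 on the GFP array, a 19.7-fold lower value (raw signal 200 against 2274). It was detected on both arrays. The cytokine gene IL1A read 7.39 on the array labelled LZTFL1 and 10.14 on the GFP array, 6.74-fold lower. The lymphotoxin gene LTB read 5.50 on the array labelled LZTFL1, close to the lowest detected value, and 8.16 on the GFP array. IL36G, another interleukin-1 family cytokine of epithelia, differed by -1.59. CEBPD, a transcription factor induced in inflammation, differed by -1.61 (8.13 on the array labelled LZTFL1 and 9.74 on the GFP array), and GBP6, a guanylate-binding protein, by -1.86.

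Of 18 measured interleukin-1 family members, cytokines and chemokines (38 on the beadchip), 5 were at least 1.5-fold lower and 0 higher, with a median of -0.17 against 0.00 for all genes. The 5 were IL1A, LTB, IL36G, IL6 (-0.94) and IL1B (-0.86). IL6 read 8.15 on the array labelled LZTFL1 and 9.09 on the GFP array. The chemokine genes CXCL8 and CCL20 lay near the centre, at -0.06 and -0.03. Of 15 measured NF-κB feedback genes, 5 were at least 1.5-fold lower and 0 higher: TNFAIP3 (-0.77), REL (-0.75), NFKB2 (-0.63), RELB (-0.60) and BCL3 (-0.59). TNFAIP3 encodes an inhibitor of NF-κB signalling and REL, NFKB2 and RELB encode NF-κB subunits. REL read 5.40, RELB 5.46 and TNFAIP3 5.69 on the array labelled LZTFL1. These lie near the lowest detected value, so their folds rest on a dim side. NFKBIA, which encodes the inhibitor IκBα and was the brightest of those named, differed by -0.01, and the list's median was -0.01.

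Among metalloproteinase genes detected on both arrays, MMP10 was the 1 past 2-fold. Of 8 measured metalloproteinases and their inhibitors (22 on the beadchip), 2 were at least 1.5-fold lower and 1 higher, with a median of -0.21. Members detected only on the GFP array could not lie above 0 by the rule for bounds. Over the 5 genes detected on both arrays the median was 0.07. MMP13, a collagenase, was detected only on the GFP array and was lower by at least 0.82 on the log2 scale (at least 1.76-fold). MMP11 (-0.17) and MMP28 (0.07, and -0.09 with median scaling) were detected on both arrays and differed by less than the scatter between probes, and MMP7 and MMP15 were detected only on the GFP array. TIMP2, a metalloproteinase inhibitor, was 0.65 higher, with 8.52 on the array labelled LZTFL1 and 7.88 on the GFP array, and TIMP1 differed by 0.23.

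Several genes of basal and squamous adhesion were lower, while other genes of the same structures were not. KRT14, a keratin of basal cells, read 9.46 on the array labelled LZTFL1 and 11.08 on the GFP array (3.08-fold lower). Its usual keratin partner KRT5 read 12.98 on the array labelled LZTFL1 and 12.94 on the GFP array. The 2 arrays are therefore apart for KRT14 and level for KRT5.

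Among 11 measured desmosome genes, 3 were at least 1.5-fold lower and 0 higher, and the median of -0.40 was the lowest of the functional lists with over 10 measured members. The 3 were the desmosomal cadherins DSG3 (8.67 on the array labelled LZTFL1 and 9.75 on the GFP array) and DSC3 (9.39 on the array labelled LZTFL1 and 10.34 on the GFP array) and the plaque protein DSP, desmoplakin (8.47 on the array labelled LZTFL1 and 9.51 on the GFP array). JUP, which encodes the plaque protein plakoglobin, differed by 0.23 on its brightest probe. Its other probes differed by 0.60 and 0.65, past 1.5-fold on the higher side. Of 12 measured hemidesmosome, laminin-332 and integrin genes, 2 were at least 1.5-fold lower: DST (-1.69), whose epithelial product anchors keratin to hemidesmosomes, and ITGA6 (-0.87), the laminin-binding integrin chain. The DST value on the array labelled LZTFL1 was 5.44, near the lowest detected value, against 7.13 on the GFP array.

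The cornified envelope and its regulators lay near the centre. Of 18 measured genes, 2 were at least 1.5-fold lower and 0 higher, with a median of 0.11 that became -0.08 with median scaling. KLF4, a transcription factor of differentiating keratinocytes, differed by -0.86 (7.50 on the array labelled LZTFL1 and 8.36 on the GFP array). CSTA, the cystatin of the cornified envelope, was detected only on the GFP array and was lower by at least 1.10 on the log2 scale. SOX2, the lineage factor of squamous lung tumours, differed by 0.24. SERPINB13, a keratinocyte protease inhibitor, differed by -1.07 (8.89 on the array labelled LZTFL1 and 9.96 on the GFP array), while PI3, which encodes the elastase inhibitor elafin, differed by 0.67.

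Tight and adherens junction genes split. CLDN1, a tight junction claudin, read 7.92 on the array labelled LZTFL1 and 9.84 on the GFP array, 3.79-fold lower. RAB25, a small GTPase of epithelial recycling endosomes, read 9.22 on the array labelled LZTFL1 and 7.97 on the GFP array, 2.38-fold higher. CGN, the tight junction protein cingulin, was 0.71 higher. Of the 25 measured members, 3 were at least 1.5-fold higher and 1 lower, with a median of -0.04, and the epithelial cadherin gene CDH1 differed by -0.15.

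The mesenchymal list held differences both ways. The lower genes were TNC (tenascin-C, -1.90), CDH2 (N-cadherin, -1.61), CDH11 (a mesenchymal cadherin, -1.46) and THY1 (-0.81). CDH2 read 7.78 on the array labelled LZTFL1 and 9.39 on the GFP array, and CDH11 read 7.19 on the array labelled LZTFL1 and 8.65 on the GFP array. The higher ones were the transcription factor gene TWIST2 (0.99) and FBN2 (fibrillin-2), which was detected only on the array labelled LZTFL1 and was higher by at least 1.43 on the log2 scale, or at least 2.69-fold. Thus 4 of 14 measured members were at least 1.5-fold lower and 2 higher, with a median of -0.13. VIM, the intermediate filament gene vimentin, differed by 0.18.

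**Figure D2:**
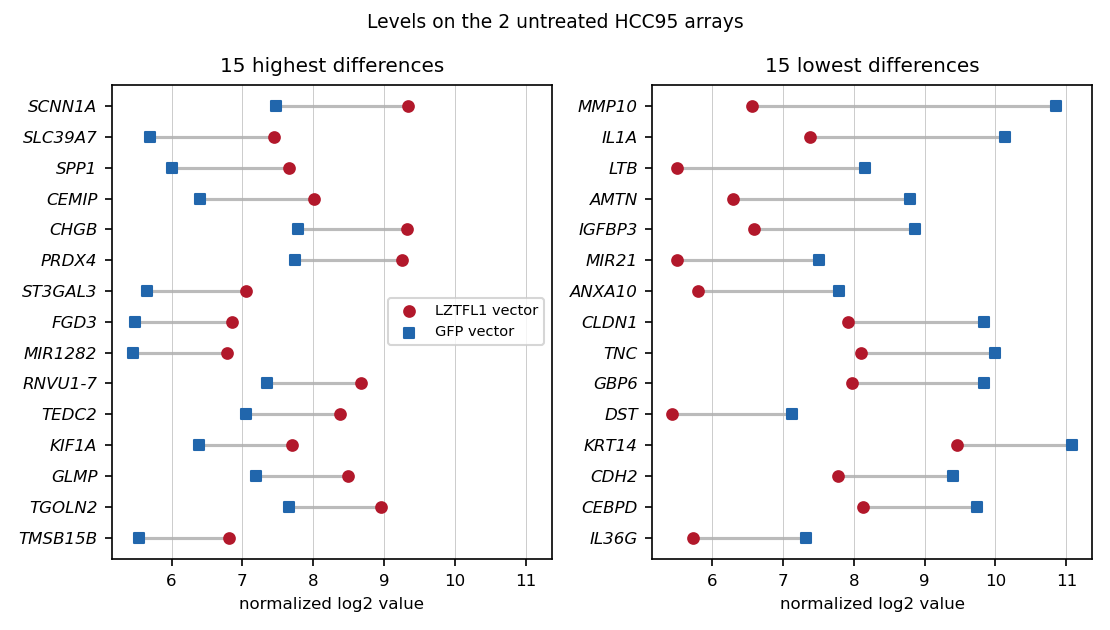
Normalized log2 values (x axis) on the array labelled LZTFL1 (red circles) and on the GFP array (blue squares) for the 15 genes with the highest differences (left) and the 15 with the lowest (right), each detected on both arrays. SCNN1A reads 9.34 with LZTFL1 and 7.48 with GFP, and MMP10 reads 6.56 with LZTFL1 and 10.86 with GFP.

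At the higher end stood a sodium channel gene and genes of secretory epithelium and secreted matrix. SCNN1A, the α subunit of the epithelial sodium channel, read 9.34 on the array labelled LZTFL1 and 7.48 on the GFP array, 3.62-fold higher. PRSS8, which encodes prostasin, a membrane serine protease that activates this channel, read 8.94 on the array labelled LZTFL1 and 7.72 on the GFP array. FXYD3, a regulator of the sodium pump, was 0.78 higher. SGK1, the kinase that keeps sodium channels at the cell surface, ran the other way, at -0.68 (11.60 on the array labelled LZTFL1 and 12.28 on the GFP array). Of the 8 measured sodium channel genes and regulators, 3 were at least 1.5-fold higher and 1 lower, and NEDD4L, ATP1B1, TMPRSS4 and FXYD5 were within 1.5-fold. This list had 4 genes above 0 and 4 below. Its median of 0.11 became -0.02 with median scaling and was 0.00 in the TGFβ-labelled pair.

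Lung differentiation factors and secretory products were few on these arrays, with 9 of 32 measured. Of these, 4 were at least 1.5-fold higher and 0 lower, with a median of 0.48. FOXA2, a transcription factor of foregut epithelium, read 8.28 on the array labelled LZTFL1 and 7.16 on the GFP array. SOX9, a factor of distal lung progenitors, read 8.83 on the array labelled LZTFL1 and 7.78 on the GFP array. LCN2, the secreted protein lipocalin-2, read 9.06 on the array labelled LZTFL1 and 8.04 on the GFP array. All of these stood about 2-fold apart, and the fourth, CEBPA, was 0.61 higher. KRT8, a keratin of simple epithelia, was also 0.61 higher.

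Secreted matrix and growth factor binding proteins were found at both ends. SPP1 (osteopontin) read 7.66 on the array labelled LZTFL1 and 6.01 on the GFP array, and CEMIP, a protein needed for hyaluronan breakdown, read 8.01 on the array labelled LZTFL1 and 6.40 on the GFP array. AMTN, which encodes amelotin, a matrix protein of the tooth epithelium, read 6.30 on the array labelled LZTFL1 and 8.79 on the GFP array. IGFBP3, which binds insulin-like growth factors, read 6.59 on the array labelled LZTFL1 and 8.86 on the GFP array. Its relatives IGFBP4 (0.77) and IGFBP6 (0.72) were higher, and IGFBP5 differed by less than 0.01 while reading 11.43 on each array. Of 12 measured insulin-like growth factor genes and binding proteins, 2 were at least 1.5-fold higher and 2 lower, the second lower one being the receptor gene IGF1R.

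CHGB (1.54), which encodes a granin of secretory granules, was the only member of 5 measured granin and neuroendocrine genes that was at least 1.5-fold apart. PRDX4, a peroxiredoxin of the endoplasmic reticulum, read 9.25 on the array labelled LZTFL1 and 7.75 on the GFP array, and SLC39A7, a transporter that releases zinc from the same compartment, read 7.45 on the array labelled LZTFL1 and 5.70 on the GFP array. These were the 2 endoplasmic reticulum genes of 22 measured that were at least 1.5-fold higher, and the list's median was -0.05, with 0 lower. HSPA5, the chaperone BiP, differed by -0.14. Among 14 measured metallothioneins and zinc transporters, SLC39A7, the zinc exporter gene SLC30A1 (0.99) and MT2A (0.69) were higher and the zinc importer gene SLC39A4 was lower (-0.70), with a median of 0.23.

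The rest of the 15 highest genes came from several cell functions. ST3GAL3, a sialyltransferase, read 7.05 on the array labelled LZTFL1 and 5.66 on the GFP array. FGD3 read 6.85 on the array labelled LZTFL1 and 5.48 on the GFP array. KIF1A, a kinesin of vesicle transport, read 7.70 on the array labelled LZTFL1 and 6.38 on the GFP array. The others were the MIR1282 probe (1.33), the U1 RNA variant RNVU1-7 (1.32), TEDC2 (a centriole protein, 1.32), GLMP (a lysosomal membrane protein, 1.30), TGOLN2 (a trans-Golgi membrane protein, 1.29) and TMSB15B (a thymosin, 1.26). MIR1282, FGD3, ST3GAL3 and TMSB15B had GFP values within 0.3 of the lowest detected value, so their folds rest on a dim side. Among the lowest, ANXA10, an annexin, read 5.80 on the array labelled LZTFL1 and 7.80 on the GFP array.

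The amino acid response was the list of over 20 measured genes with the lowest median. ATF4 is a transcription factor that is translated more when amino acids run short and switches on genes of amino acid synthesis and uptake. Of 30 measured genes of this response, 25 lay below 0 and 5 above, where 49.5% of all genes lay below 0. At least 1.5-fold, 9 were lower and 0 higher, and the median was -0.36. CHAC1, a glutathione-degrading enzyme, read 6.30 on the array labelled LZTFL1 and 7.84 on the GFP array. STC2, a secreted glycoprotein gene induced by stress, read 9.97 on the array labelled LZTFL1 and 10.98 on the GFP array. PSAT1, an enzyme of serine synthesis, read 11.01 on the array labelled LZTFL1 and 11.74 on the GFP array.

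The other genes at least 1.5-fold lower in this list included VLDLR (-1.01), the lyase gene CTH (-0.95) and the glutamine transporter gene SLC1A5 (-0.72). The most cited members were closer to the centre on their brightest probes: ASNS, asparagine synthetase, differed by -0.29 and ATF4 itself by -0.19. Another ASNS probe differed by -0.67, past 1.5-fold, and other ATF4 probes differed by -0.42 and 0.38. In the TGFβ-labelled pair the same list had a median of -0.31, and in H460 it had a median of 0.13.

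**Figure D3:**
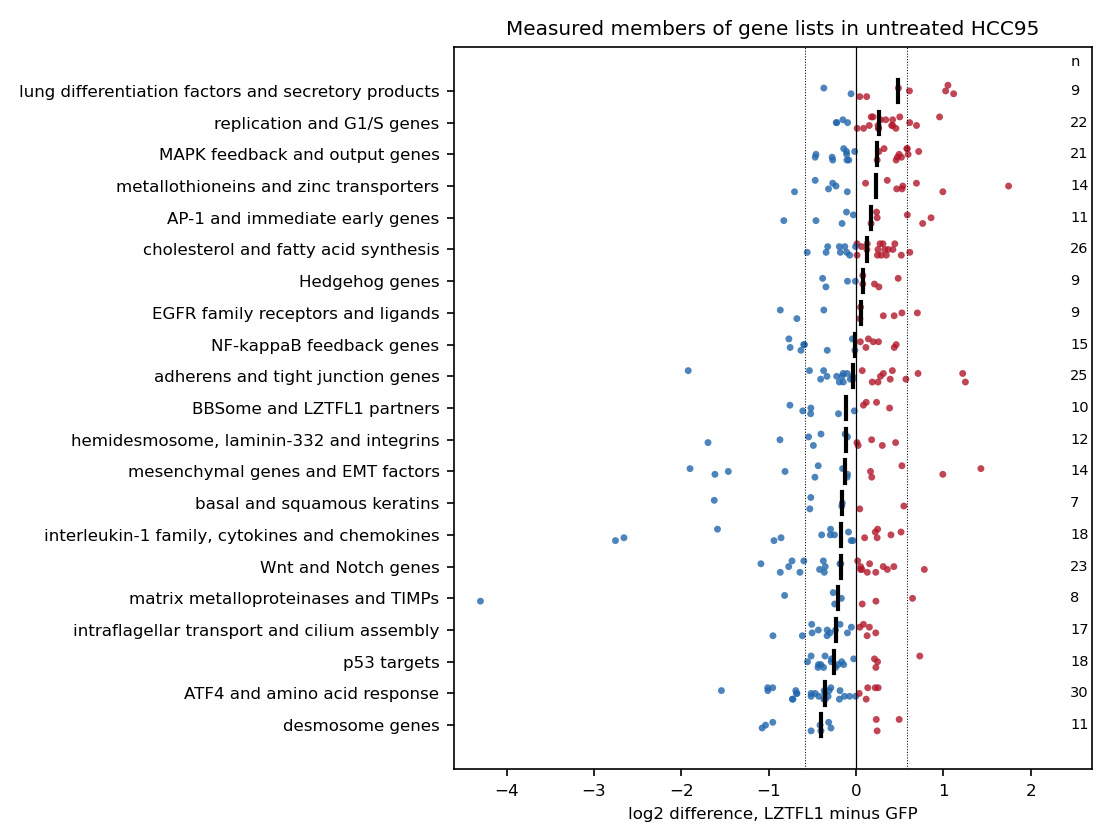
Log2 difference (LZTFL1 minus GFP, x axis) of each measured member of 21 gene lists (rows, with the number of measured members n at the right); red points are above 0 and blue below, black bars are list medians and dotted lines mark 1.5-fold. The medians lie between -0.40 for desmosome genes and 0.48 for lung differentiation factors and secretory products, with single genes such as MMP10 far from their list's median.

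Growth factor signalling genes differed less. MAPK feedback and output genes report on ERK activity, since many are switched on by it and restrain it. Of 21 measured, 3 were at least 1.5-fold higher and 0 lower: ETV4 (0.72), SPRED2 (0.60) and IER2 (0.59). The feedback genes SPRY2 (0.58), SPRY4 (0.46) and DUSP6 (0.47) and the cyclin gene CCND1 (0.49) lay below that fold. SPRED1 (-0.47) and FOSL1 (-0.46) lay on the other side, and the list's median of 0.24 with quantile normalization was 0.08 with median scaling, under which all genes had a median of -0.17. With that scaling 0 of the 21 were at least 1.5-fold higher and 2 were lower. DUSP7, DUSP5, SPRY1, MYC, PHLDA1, MAFF, HMGA2, EPHA2, EPHA4, EGR1, ETV5 and IER3 were also measured, and none reached 1.5-fold on its brightest probe. Dimmer probes of MYC (-0.74) and PHLDA1 (-0.92) were past that fold on the lower side, and one of SPRY4 (at least 1.12) on the higher. Another ETV4 probe differed by 0.43, below that fold, and another ETV5 probe by -0.17.

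Among EGFR family receptors and ligands, TGFA, a ligand, was 0.70 higher, while the receptor gene EGFR (9.48 on the array labelled LZTFL1 and 10.15 on the GFP array) and the ligand gene NRG1 (10.35 on the array labelled LZTFL1 and 11.22 on the GFP array) were lower. Other probes of these genes did not reach 1.5-fold: 0.45 for TGFA, -0.23 for EGFR, and -0.58 and -0.36 for NRG1. Of 11 measured AP-1 and immediate early genes, FOS (0.76), FOSL2 (0.86) and IER2 were at least 1.5-fold higher and ATF3 (-0.83) was lower. The Wnt and Notch list held 6 genes at least 1.5-fold lower and 1 higher of 23 measured. WNT5A, a ligand of non-canonical Wnt signalling, read 10.12 on the array labelled LZTFL1 and 11.21 on the GFP array. The Notch ligand genes JAG1 (-0.87) and DLL1 (-0.77) were lower and the Notch target HEYL was 0.78 higher.

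Of the genes closest to the known role of LZTFL1, Hedgehog genes were near the centre and intraflagellar transport genes leaned lower. No Hedgehog gene reached 1.5-fold: of 9 measured, GLI2 (-0.38), PTCH1 (-0.34), GLI1 (-0.10) and KIF7 (-0.01) lay below 0, and SMO (0.08, but -0.14 with median scaling), DISP1 (0.21), GAS1 (0.26) and STK36 (0.48) lay above, with SUFU detected on 1 array only. PTCH1 and GLI1 are the usual transcriptional readouts of this pathway. Of 10 measured BBSome genes and LZTFL1 partners, BBS7 (-0.76) and BBS2 (-0.61) were at least 1.5-fold lower, with a list median of -0.11. Each had another probe detected on both arrays that did not reach this fold, at -0.06 for BBS7 and -0.32 for BBS2. Of 17 measured intraflagellar transport and cilium assembly genes, WDR19 (-0.95) and IFT80 (-0.61) were at least 1.5-fold lower and 0 were higher. This list's median was -0.23, and 12 of the 17 lay below 0, where 49.5% of all genes did. Its median was -0.20 in the TGFβ-labelled pair and 0.09 in H460. WDR19 and IFT80 encode intraflagellar transport subunits. None of the 6 measured motile cilia genes reached 1.5-fold.

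Genes of DNA replication and G1/S had 18 of 22 measured members above 0, where 49.7% of all genes lay above 0, and a median of 0.26. The E2F2 transcription factor gene (0.96), the flap endonuclease gene FEN1 (0.69) and the DNA methylation maintenance gene UHRF1 (0.61) were at least 1.5-fold higher. The 33 mitosis and kinetochore genes had a median of -0.01, and their highest member BIRC5 (survivin) differed by 0.78 on its brightest probe and by -0.14 on another. Of 18 p53 target genes, 14 lay below 0 with a median of -0.26, and the 1 past 1.5-fold, AEN, was higher. Genes that limit cytokine signalling included SOCS2 (-1.29) and PIM1 (-0.79) on the lower side and PIM2 (0.82) on the higher.

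MHC class I genes were lower while several other interferon-stimulated genes were higher. HLA-F (-0.95), HLA-B (-0.70) and HLA-C (-0.64) were at least 1.5-fold lower, and B2M, the light chain they share, differed by -0.38. A second HLA-F probe differed by -0.19. ISG15 (0.65), the immunoproteasome subunit gene PSMB9 (0.72) and the interferon regulatory factor genes IRF1 (0.62) and IRF7 (at least 0.59) were at least 1.5-fold higher among the 22 measured members, so the list's median was 0.00. HLA genes are near-identical in sequence, so probes may read more than the gene they are annotated to. In the TGFβ-labelled pair HLA-B differed by -0.73, HLA-F by -0.33 and HLA-C by -0.04.

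Lists of general cell function lay close to the centre. The median was -0.06 for 33 ribosomal protein genes, 0.10 for 25 proteasome subunits and 0.08 for 32 respiratory chain genes, the last of which became 0.00 or less with median scaling. None of the 25 proteasome genes reached 1.5-fold on its brightest probe, though another probe of PSMC4 differed by 0.68. The 13 housekeeping genes had a median of -0.08, with GAPDH at 0.04 and ACTB at -0.08, but PPIA differed by -0.68.

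Probes of the same gene gave an internal check. Of the 2224 genes with more than 1 probe detected on both arrays, 5 had every such probe at least 2-fold apart in 1 direction. SPP1 was the higher one, with differences of 1.65 and 1.53. The 4 lower ones were TNC (-1.90 and -2.48), IGFBP3 (-2.27 and -1.11), BCL2 (-1.40 and -1.12) and TMEM156 (-1.20 and -1.41). BCL2 encodes an inhibitor of apoptosis, and a further probe of it, detected only with LZTFL1, lay near the lowest detected value and gave 0.00. At least 1.5-fold on every probe detected on both arrays, 18 genes were higher and 34 lower.

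Other genes rested on 1 of their probes. Of 34 genes of the naming rule past 1.5-fold that had another probe detected on both arrays, 16 were past 1.5-fold in the same direction on every such probe and 33 lay in the same direction. Those that missed the fold on another probe included EGFR (-0.23), AEN (0.26) and PSMB9 (0.40). SLC39A7 was 1.75 higher on its brightest probe and 0.33 on another, and CA12, a carbonic anhydrase, was 1.17 higher on 1 probe and 0.49 on the other. STOM differed by -1.25 and 0.11 and DENND2B by -1.01 and 0.27, so their probes disagreed in direction; they and TMSB15B, whose probes differed by 1.26 and 0.98, are shown because they stand out in the plot of probe agreement. Of 6 genes with several probes whose brightest was at least 2-fold higher, another probe was past 1.5-fold in 3. Of 8 such lower genes it was past 1.5-fold in 5. MMP10, IL1A, LTB, SCNN1A and most other named genes had 1 probe detected on both arrays and no such check.

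**Figure D4:**
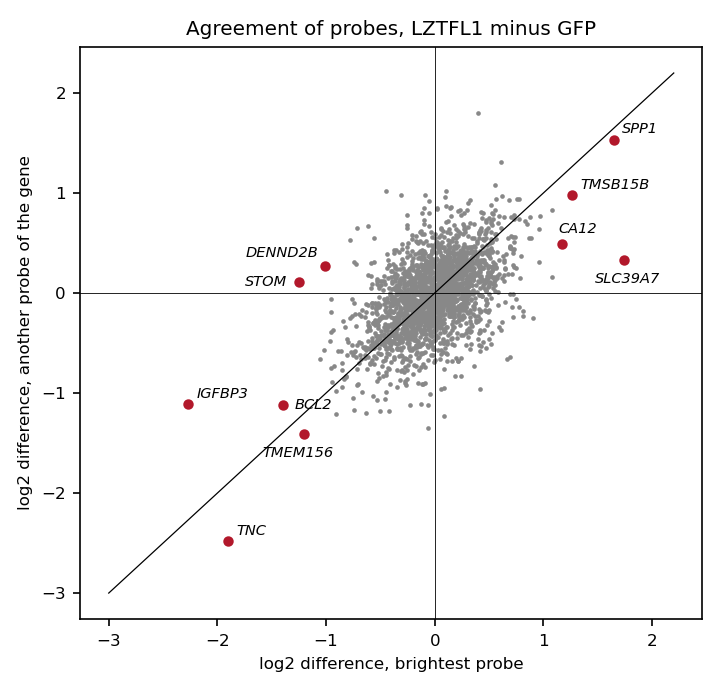
Log2 difference (LZTFL1 minus GFP) on the brightest probe (x axis) and on another probe of the same gene that was detected on both arrays (y axis) for 2224 genes, with the line of equality. SPP1, TNC, BCL2, TMEM156 and IGFBP3 are at least 2-fold apart on both plotted probes, SLC39A7 and CA12 fall below the line, and STOM and DENND2B change direction.

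The TGFβ-labelled HCC95 pair and the H460 pair share no array with the untreated pair, and each is again 1 array a side. Of the 51 genes at least 2-fold higher in untreated HCC95, 50 were measured in the TGFβ-labelled pair, 49 lay on the same side and 17 were at least 2-fold higher there too, against 0.401% of all genes in that pair. Of the 69 lower genes, 66 were measured, 63 lay on the same side and 34 were at least 2-fold lower there, against 0.865% of its genes. The share of all genes on the same side in both pairs is not given here, so the same-side counts have no background. Whether the cells of both HCC95 pairs came from the same transfection is not said in the labels. In H460, 0.0504% of all genes reached 2-fold on the higher side and 0.0706% on the lower. There, 1 of the 36 measured higher genes and 0 of the 40 measured lower genes reached 2-fold on the same side. On the same side at any size lay 28 of the higher genes, with a median of 0.13, and 21 of the lower genes, with a median of -0.02.

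Some genes were about as far apart in the TGFβ-labelled pair as in the untreated one. MMP10 was undetected with LZTFL1 there, a bound of -4.43 on the log2 scale. CLDN1 (-1.93), KRT14 (-1.58), CDH2 (-1.69), MIR21 (-1.93) and SCNN1A (2.10) had differences within 0.25 of those of the untreated pair. Others were farther from 0 in the untreated pair. LTB had -2.66 untreated, against -0.56 under the TGFβ label. IL1A had -2.75 untreated, against -1.51 under the TGFβ label, and SLC39A7 had 1.75 untreated, against 0.63. AMTN had -2.49 untreated, against at least -0.91 under the TGFβ label, where it was undetected with LZTFL1, so the 2 values cannot be ranked. These contrasts between pairs were not tested.

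**Figure D5:**
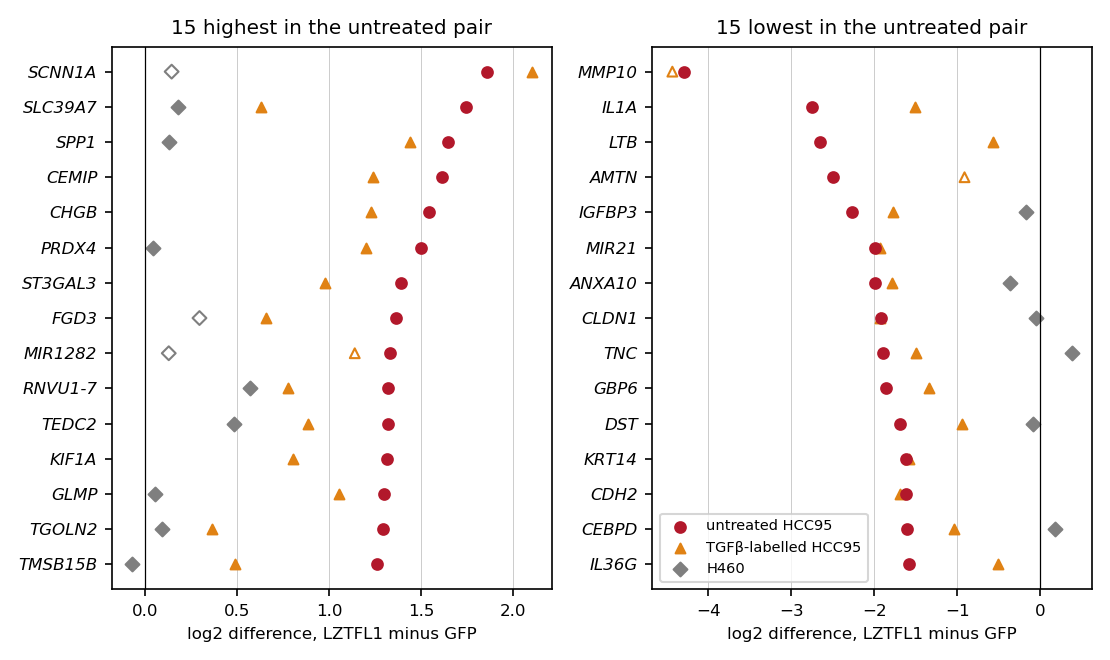
Log2 difference (LZTFL1 minus GFP, x axis) in untreated HCC95 (red circles), TGFβ-labelled HCC95 (orange triangles) and H460 (grey diamonds) for the 15 highest (left) and 15 lowest (right) genes of the untreated pair; open symbols are bounds and missing symbols were not measured. The orange triangles lie on the side of the red circles for all 30 genes, nearest for KRT14, CDH2, CLDN1 and MIR21 and, among filled triangles, farthest for LTB, while the grey diamonds lie between -0.37 (ANXA10) and 0.57 (RNVU1-7).

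Bounds pointed to a few more genes detected on 1 array. Apart from FBN2, the highest were EPS8L2 (at least 1.17), MFNG (at least 1.09), HPCAL4 (at least 1.09) and the potassium channel gene KCNK5 (at least 1.00). The lowest were LCP1 (a leukocyte actin-bundling protein, at least 2.62-fold lower), ZSCAN31 (at least 2.51-fold), LRRC40 (at least 2.36-fold), NTS (the peptide neurotensin, at least 2.31-fold) and ABI3BP (at least 2.21-fold). LCP1 read 5.33 on the array labelled LZTFL1 and 6.72 on the GFP array.

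The promoters of the lower genes were searched for the AP-1 letters TGANTCA (both strands, which this motif covers with the same letters), as a description with no test. Of 53 lower genes with a RefSeq promoter window (250 bases before to 50 after the start), 9 held a match (17.0%), against 1 of 31 higher genes (3.23%) and 383 of 8469 genes that entered (4.52%). Over all 27305 windows of the table the share was 7.76%. Base composition moved with this: the median GC content was 55.3% for the lower genes, 66.7% for the higher and 65.3% for those that entered. Among the 2893 windows poorest in GC (27.7% to 61.3%), 7 of 33 lower genes held a match (21.2%), against 7.81% of all 2893, among the middle 2804 none of 11 lower genes did, against 3.60% of all 2804, and among the 2772 richest 2 of 9 lower genes did, against 2.02% of all 2772. A match is a description of letters, and whether AP-1 binds there was not measured.

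The matches in the lower genes lay at different distances from the start, and those beside MMP10 and IL1A are in the sequences shown above, except for a second IL1A match 39 bases after the start, which lies outside the printed stretch. Others are given with up to 10 bases on each side, in GRCh38.p14 on the gene's strand, with the motif in capitals: GBP6 at chr1:89363898-89363924 (plus), SERPINB13 at chr18:63587246-63587272 (plus), TMEM156 at chr4:39032474-39032500 (minus) and DST at chr6:56954789-56954815 (minus), followed by the 1 higher gene with a match, LCN2, at chr9:128149391-128149417 (plus).
GBP6: tcacatcggaTGATTCAggcatggctc
SERPINB13: cgagagatgcTGACTCAgttggtctgg
TMEM156: taatgggaagTGACTCAaaagtgaagt
DST: cgctgtctgcTGAGTCAtggcaagcgc
LCN2: tggcaaagaaTGAATCAacccacccta
The matches began 151 bases before the start in GBP6, 87 in SERPINB13 and 81 in TMEM156, and 26 bases after it in DST.

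A degenerate NF-κB motif (both strands) stood in 3 of the 53 lower windows (5.66%), in 0 of 31 higher windows and in 1.49% of the genes that entered. They were in LTB, CHAC1 and TENM3. The ATF4 composite letters TGATGNAA (both strands) stood in 4 lower windows (7.55%), those of CHAC1, DSG3, MYLK and NCOA7, in 1 of 31 higher windows (3.23%), that of GADD45G, and in 1.71% of the genes that entered. CHAC1 held both motifs, shown here at chr15:40953366-40953395 and chr15:40953252-40953279 on the plus strand, beside the LTB match at chr6:31582492-31582521 on the minus strand. TENM3, MYLK and NCOA7 are named only because their windows matched.
CHAC1 NF-κB match: tggccaaaagGGGATTTGCCccaccccaat
CHAC1 ATF4 match: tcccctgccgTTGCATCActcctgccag
LTB NF-κB match: aggggtgtgcGGAAAGTCCCagccaggtgt
The GLI letters GACCACCCA stood in 0 of the 53 lower and 0 of the 31 higher windows, and in 0.224% of those that entered. The TEAD letters GGAATG stood in 11.3% of the lower, 16.1% of the higher and 10.3% of all entered windows.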

How the data were processed

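RNA of 6 lung cancer cell cultures was measured on Illumina HumanHT-12 v4 beadchips, 1 array a group, and the 2 untreated HCC95 arrays were compared. Each group was taken from the labels. The authors deposited non-normalized probe intensity values with a detection p-value beside each, in steps of 1 in 770, per the file headers and values, and a table of processed intensities. Per the submitters' processing notes the software was GenomeStudio 2011.1, with its settings not given in the sources used here. There were 0 columns from other series.

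From the deposited intensities, normalized log2 values were made with neqc of limma 3.58.1 (R 4.3.3): normexp background correction using the detection p-values, an offset of 16 and quantile normalization over the 6 arrays. The offset understates folds of dim genes. Of 47323 probes, 30113 had 1 gene symbol, 8 had several and 17202 were not listed. Of those with 1 symbol, 30074 were matched by gene identifier, which updated old symbols. A gene took its brightest probe over the 6 arrays. The 3899 probes without a listed gene that entered were not named, and 10 of them were at least 2-fold higher and 17 lower. Where raising an undetected value to the detection floor put that array above the other, the difference was set to 0 (71 genes).

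The named genes are the 15 highest and 15 lowest differences detected on both arrays, the 5 highest and lowest bounds, genes with every probe past 2-fold, members of gene lists past 1.5-fold (at most 6 a list), LZTFL1, every measured Hedgehog, MAPK, metalloproteinase and sodium channel gene, and up to 6 genes farthest from the TGFβ-labelled pair. Others were named after their values were seen: list members near 0, markers, probe disagreements and motif matches. The members and the 54 gene lists were chosen with earlier results of these data known. Of 1144 list symbols, 1063 were on the beadchip and 776 entered. Promoter and microRNA sequences are RefSeq's (GRCh38.p14), matched by gene ID. The pair calculation was tested on simulated data. Alternatives changed the scaling, background, offset, filter, floor, probe choice and arrays normalized together, and used the authors' processed table. Python 3.11.15, pandas 2.3.3 and matplotlib 3.10.9 were used.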

Additional observations from a re-analysis of the deposited data

Results flagged for a closer look

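For 8 genes past 2-fold in the untreated pair, another pair differed to the other side by more than the scatter between probes of that pair (an SD of 0.270 in the TGFβ-labelled pair and 0.209 in H460). Smaller differences to the other side are not listed. Of the genes past 2-fold, 50 higher and 66 lower ones were measured in the TGFβ-labelled pair, and 36 and 40 in H460. The share of all genes past these SDs in each pair is not given here, so the count of 8 has no background. Each pair has 1 array a side and the difference between pairs was not tested. In the TGFβ-labelled HCC95 pair, HECA differed by 0.28, against -1.14 in untreated HCC95, and INTS8, a subunit of the Integrator complex, by 0.41, against -1.07. In H460, TNC differed by 0.38, against -1.90 in untreated HCC95, CHAC1 by 0.48, against -1.54, and STOM by 0.50, against -1.25 on its brightest probe. In H460, CCSER2 differed by 0.22, against -1.05, LCP1 by 0.23, against at least -1.39, and ANKRD13D by -0.86, against 1.09. The CCSER2 and LCP1 values in H460 lay only just past that pair's SD of 0.209. The CHAC1 value in H460 is a bound, since it was detected there only with LZTFL1.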

How the results depend on the processing

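No paired analysis was possible because each group had 1 array. Of the 192 genes recomputed by name, MMP28 and SMO turned direction, both with median scaling, and no other of the 192 turned. Genes near 0 named outside these 192, such as GAPDH and IGFBP5, were not followed singly. Of the 192, 86 moved by over the scatter between probes without background correction, 42 with an offset of 50 and 18 with the mean of a gene's probes. Counts past a fold moved. The genes at least 2-fold higher were 51, but 26 with median scaling, 3 without background correction and 17 with an offset of 50. The genes at least 2-fold lower were 69, but 168, 19 and 34 under the same 3 settings. At least 1.5-fold, the 450 higher genes became 205, 107, 243 and, with no filter and no floor, 684, and the 495 lower genes became 1235, 128, 249 and 754. The median of all genes moved to -0.17 with median scaling. With 51 and 69 genes as the base, median scaling shared 26 of the higher and 69 of the lower. The metalloproteinase list's median turned to 0.0707 over the 5 genes detected on both arrays, and the kallikrein list's to -0.0502 over 13 genes with no filter. Dim genes are limited most: a value near the lowest detected signal understates its fold.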

Other observations

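Small nuclear RNAs, and by less small nucleolar RNAs, read higher on the array labelled LZTFL1, a pattern chosen after the values were seen. Of 12 measured genes annotated as snRNA, 4 were at least 2-fold higher and 0 lower, with a median of 0.78, where 0.403% of 9931 protein-coding genes were at least 2-fold higher. RNVU1-7, a variant gene of the U1 spliceosomal RNA, read 8.67 on the array labelled LZTFL1 and 7.35 on the GFP array, and RNU1-1, a U1 gene, read 9.46 on the array labelled LZTFL1 and 8.24 on the GFP array. These copies are near-identical, so their probes may read the same RNA. Of 93 snoRNA genes, 9 were at least 1.5-fold higher (9.68%, against 4.09% of protein-coding genes) and 0 lower. Their median of 0.18 was about the size of the move of all genes with median scaling (-0.17). The snRNA median was 0.56 in the TGFβ-labelled pair and 0.29 in H460, and the snoRNA median was 0.15 and 0.09 in the same order.

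The median difference was not the same on every chromosome, which was again seen after the fact and not tested. The median was -0.22 over 368 genes of chromosome 8, -0.21 over 149 genes of chromosome 18 and -0.17 over 341 genes of chromosome 4, and 0.12 over 647 genes of chromosome 17 and 0.11 over 683 genes of chromosome 2. On chromosome 8, 11.7% of genes were at least 1.5-fold lower, against 4.74% of all genes, and on chromosome 16, 8.87% were at least 1.5-fold higher, against 4.31% of all genes. The TGFβ-labelled pair had medians of -0.21 on chromosome 8 and 0.16 on chromosome 17, and H460 had 0.01 and 0.00.

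Both subunit genes of the Rab geranylgeranyl transferase, the enzyme that attaches lipid to Rab GTPases, were past 2-fold. RABGGTA was detected only on the GFP array and was lower by at least 1.03 on the log2 scale, and RABGGTB differed by -1.02 on its brightest probe and by -0.57 on another.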
